A study of Homo sapiens with 6 samples.

Results

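The 2 control states of an RNA-seq study of EZH2 were set against each other: C4-2 cells infected with lentivirus carrying a scramble shRNA, and C4-2 cells given only the vehicle of the drug arms. C4-2 is an established, androgen-independent prostate cancer line derived from LNCaP, and all cells were used at passages 10 to 15. The scramble library is the control of an EZH2 knockdown with 2 hairpins, for which the table has 1 column, and the vehicle library is the control of GSK126, an inhibitor of EZH2's catalytic activity, and of astemizole, an antihistamine. Genes were compared where they stood at 1 FPKM (fragments scaled to transcript length and sequencing depth) or more in either column. This took in 12427 of 28503 names in the table, and 12375 remained once 19 names turned into dates and 33 short noncoding RNA names were set aside. Both controls held 11802 of them at 1 FPKM or more, 181 passed in the scramble column only and 392 in the vehicle column only. At the threshold itself, TAS2R14 (0.389 FPKM with scramble shRNA, 1.00 with vehicle) was just inside, and TTLL6 (0.597 FPKM with scramble shRNA, 0.999 with vehicle) just outside.

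A short hairpin RNA is transcribed from the integrated provirus, carried out of the nucleus by exportin-5, cut by Dicer and loaded into Argonaute proteins, the route that microRNAs take. A scramble hairpin goes down this route without a chosen target, so it serves as the control for infection and for the use of that machinery. Lentiviral RNA and its DNA copy can be met by cytosolic sensors such as RIG-I and MDA5, which act through MAVS and TBK1 on interferon genes, and by restriction factors such as TRIM5 and the APOBEC3 enzymes. A vehicle control sees only the solvent of the drugs. The hairpin sequence, promoter, virus dose, selection, solvent and harvest times are not stated in the sources used, so infection, hairpin and any difference in time or handling cannot be told apart. Each control is 1 library, so no spread between replicates is known and no test was made. A ratio below is log2 of FPKM + 1 with scramble shRNA over FPKM + 1 with vehicle, which understates the change of low genes.

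Both columns had the marker profile of a luminal prostate cancer line. KLK3, which encodes prostate-specific antigen, stood at 2796 FPKM with scramble shRNA and 2675 with vehicle. The luminal keratin gene KRT8 stood at 285 FPKM with scramble shRNA and 269 with vehicle. Among basal genes, KRT14 stood at 3.23 FPKM with scramble shRNA and 4.64 with vehicle, and 5 of 15 basal and mesenchymal genes reached 1 FPKM with scramble shRNA and 6 with vehicle. The basal gene KRT5 (0 with scramble shRNA, 0.0211 with vehicle), the blood cell gene PTPRC (0 in both) and the endothelial gene PECAM1 (0 in both) were at or near 0. The liver gene ALB stood at 0.119 FPKM with scramble shRNA and 4.18 with vehicle. FPKM summed to 661933 in the scramble column and 796603 in the vehicle column, with 17698 and 17994 names above 0. A shared spacing of low values put the worth of 1 read in the scramble column at 0.858 times that in the vehicle column. Depth itself is unknown, and an FPKM listed as 0 need not mean that no fragment was seen.

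The 2 controls lay close together. The median ratio was -0.11, the middle of the genes ran from -0.29 (25th percentile) to 0.08 (75th), and the 1st and 99th percentiles were -0.96 and 0.64. Only 22 genes (0.178% of those compared) were at least 2-fold higher with scramble shRNA and 110 (0.889%) at least 2-fold lower. At 1.5-fold, 171 (1.38%) were higher and 589 (4.76%) lower. The lean towards lower values depended on scale: rescaled so that each column summed to the same total (TPM), the all-gene median moved to 0.13, and 82 genes were higher and 82 lower. Gene groups are therefore read against the median of all genes, which is -0.11 as computed and 0.13 after rescaling. A median that changed sign after rescaling is named as such.

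**Figure D1:**
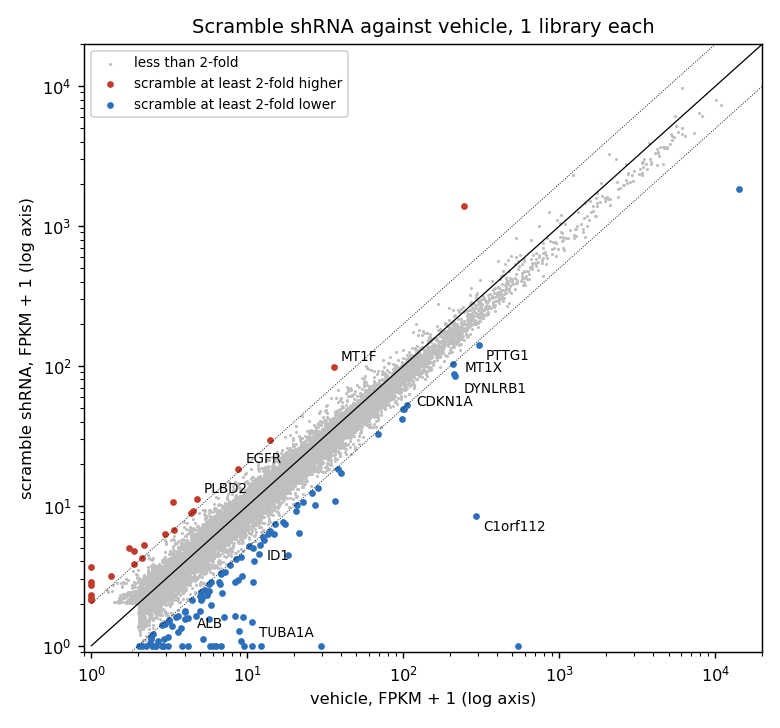
FPKM + 1 of 12375 genes with vehicle (horizontal, log axis) and scramble shRNA (vertical, log axis), 1 library each; the solid line marks equal values, the dotted lines 2-fold. The cloud follows the diagonal, with 22 genes at or beyond the upper dotted line and 110 at or beyond the lower.

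The called genes were also placed against the other columns of the table. Those columns are treated states, and genes picked for a gap between the controls tend to have a control at an extreme. The counts therefore describe position among the columns and do not tell which control was unusual. Of the 110 lower genes, the vehicle value alone lay outside the range of the other 4 columns in 42, the scramble value alone in 28, both in 22 and neither in 18. Of the 22 higher genes, the counts were 7 for vehicle alone, 6 for scramble alone, 6 for both and 3 for neither. Over all genes, vehicle was the highest of the 5 columns in 30.2% and the lowest in 14.4%. Scramble shRNA was the lowest in 22.0% and the highest in 9.96%. These shares count a gene whether or not the other control was also at an extreme. Many calls rested on thin values: 21 of the lower genes were listed at 0 with scramble shRNA, 6 of the higher genes were listed at 0 with vehicle, and 47 of the lower genes carried names absent from the symbol tables used. At 5 FPKM or more in either column stood 10 of the higher and 62 of the lower genes.

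In some of the largest differences the vehicle value stood apart from the other columns. C1orf112, a gene involved in genome maintenance, stood at 7.44 FPKM with scramble shRNA, 2.00 with EZH2 knockdown, 5.58 with GSK126, 3.27 with astemizole and 290 with vehicle, a ratio of -5.11. TUBA1A, an alpha tubulin, stood at 0.475, 1.52, 1.6 and 1.31 FPKM in the same order and at 9.65 with vehicle (ratio -2.85). In both genes the vehicle value was far above the other 4, and for TUBA1A the scramble value was also the lowest. TUBA1A is nearly identical in its coding sequence to TUBA1B and TUBA1C, so its assignment is uncertain. PLBD2, a lysosomal phospholipase B-like protein, lay the other way round: 10.2 FPKM with scramble shRNA, 18.9 with EZH2 knockdown, 10.5 with GSK126, 10.4 with astemizole and 3.73 with vehicle (ratio 1.25). Here vehicle was the low column.

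In others the scramble value stood apart. DYNLRB1, a light chain of the dynein motor, stood at 83.0 FPKM with scramble shRNA, 219 with EZH2 knockdown, 191 with GSK126, 214 with astemizole and 213 with vehicle (ratio -1.35). TMSB4X, which encodes the actin-binding peptide thymosin beta-4, stood at 40.5 FPKM with scramble shRNA, 99 with EZH2 knockdown, 122 with GSK126, 292 with astemizole and 97.6 with vehicle (ratio -1.25). In both the scramble value was the lowest of 5. EGFR, the epidermal growth factor receptor, was highest with scramble shRNA: 17.4 FPKM, against 10.3 with EZH2 knockdown, 11.3 with GSK126, 8.10 with astemizole and 7.71 with vehicle (ratio 1.08). Its vehicle value was at the same time the lowest of 5.

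**Figure D2:**
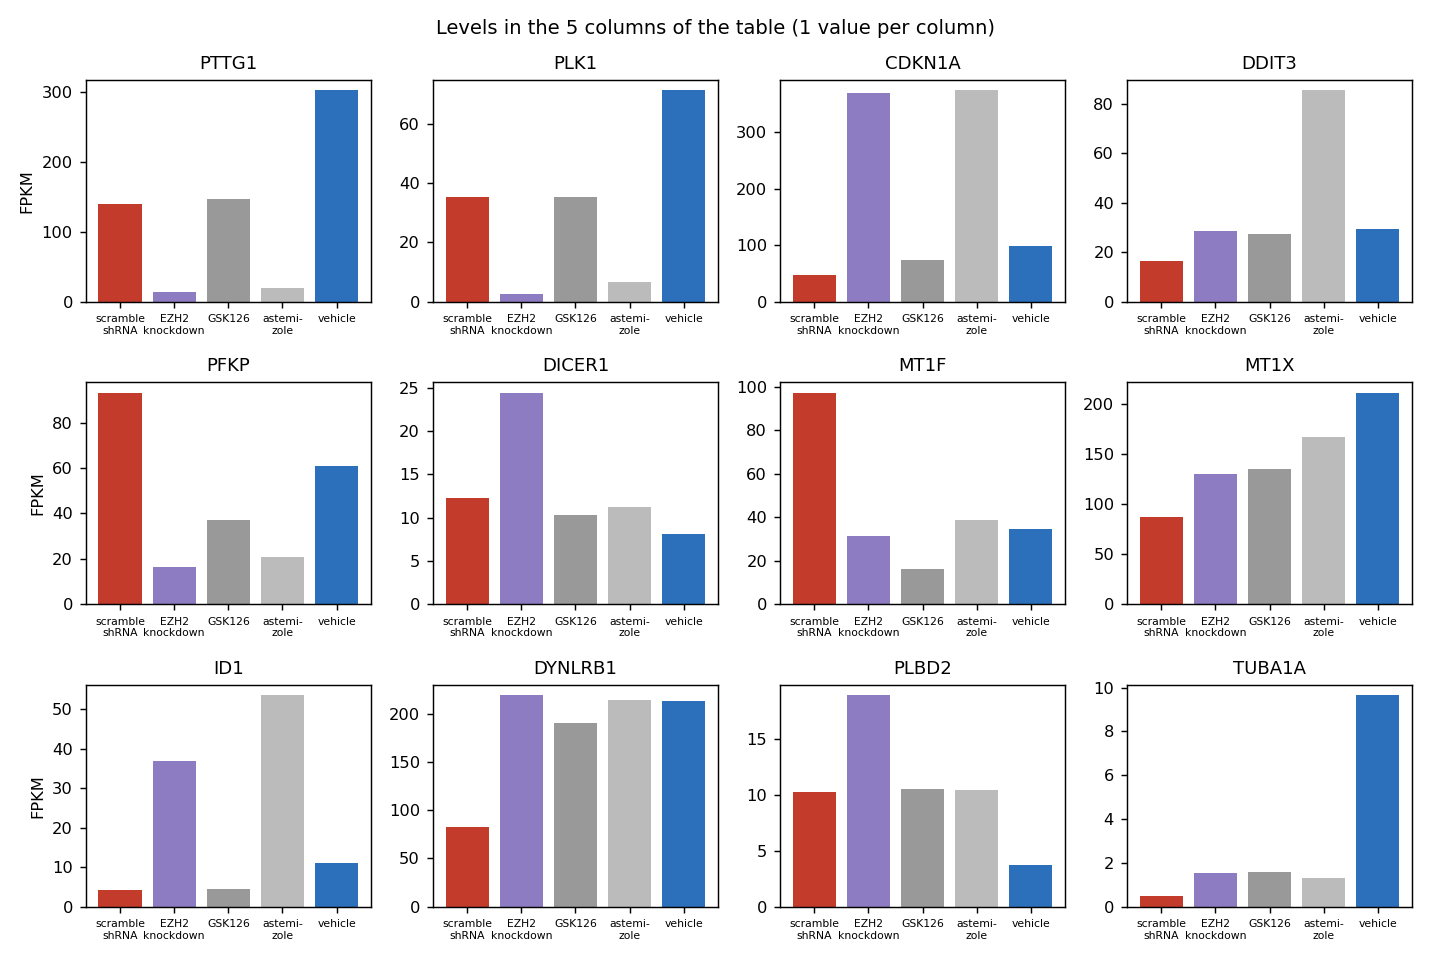
FPKM of 12 genes (vertical axes, from 0, each on its own scale) in the 5 columns, 1 value per column, so no error is shown. DYNLRB1 and MT1X are lowest with scramble shRNA, PLBD2 is lowest with vehicle, TUBA1A and PTTG1 are highest with vehicle, and MT1F and PFKP are highest with scramble shRNA.

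Across the genome the ratio followed transcript length. Among 8763 genes at 5 FPKM or more with an annotated length, cut into 10 equal classes by length, the shortest class (median 1069 bases) had a median ratio of -0.36 and the longest (median 8730 bases) one of 0.13, with every class between them in order. Of the shortest class 93.9% had a ratio below 0, against 32.7% of the longest. The median level of the shortest class was 59.7 FPKM with scramble shRNA, 59.1 with EZH2 knockdown, 60.2 with GSK126, 65.3 with astemizole and 77.2 with vehicle. For the longest class it was 11.2, 11.5, 11.3, 10.2 and 10.3 FPKM in the same order. The vehicle column was thus the highest of 5 for short transcripts, and vehicle and astemizole the lowest pair for long ones. Over these genes Spearman's rho of the ratio was 0.50 with length and -0.25 with GC content. Length and GC content were themselves related (rho -0.35), and genes of 1 pair of libraries are not independent replicates.

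**Figure D3:**
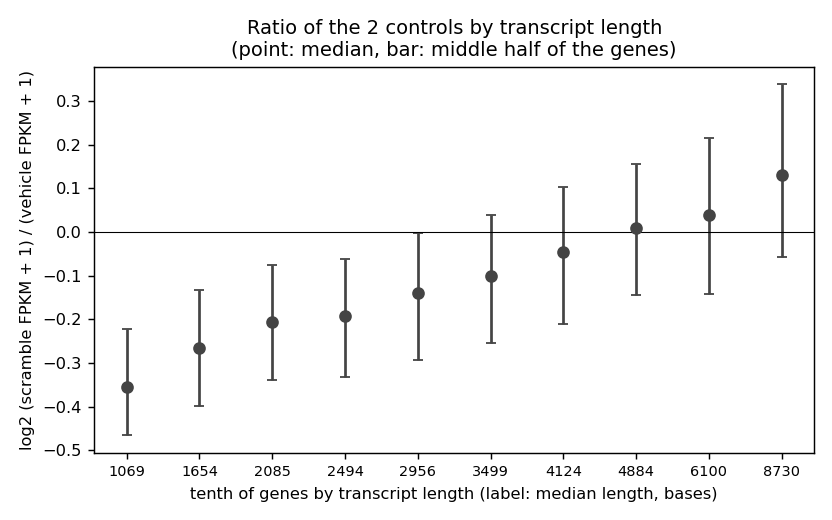
Ratio of scramble shRNA over vehicle (vertical, log2) in 10 classes of genes ordered by transcript length (horizontal, labelled by median length in bases); points are medians and bars run between the quartiles. The medians climb from -0.36 in the shortest to 0.13 in the longest class.

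The order by length also ran through the called genes. The median length was 4765 bases for the 15 higher genes with a known length and 2009 bases for the 60 lower ones, and 6 of the higher genes exceeded 8000 bases. COL12A1, which encodes a fibril-associated collagen, was among these 6 at 28.4 FPKM with scramble shRNA and 12.9 with vehicle (ratio 1.08). MYO5A, a myosin motor of vesicle transport, stood at 7.91 FPKM with scramble shRNA and 3.34 with vehicle (ratio 1.04). Subtracting the median ratio of each gene's length class left 20 genes at least 2-fold higher and 33 lower among 11527 with a length. Of the called genes with a length, 9 of the 15 higher and 30 of the 60 lower remained called. The others of the 22 and 110 have no length and could not be adjusted. Among genes named here, EGFR, COL12A1, MYO5A, TMSB4X, MT1X, CDKN1A, CDKN3, JUND, CRYAB, GPNMB and APOA1 were no longer past 2-fold. Length-adjusted medians are therefore given beside the list medians. What makes the columns differ by length was not tested.

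Genes of G2 and mitosis were lower with scramble shRNA. All 26 in the list had a ratio below 0, against 65.4% of all genes, and 12 were at least 1.5-fold lower, against 4.76%. The list median was -0.54, it was -0.28 after rescaling to equal totals, and -0.35 with all 26 still below 0 after length adjustment, which puts 48.7% of all genes with a length below 0. Vehicle was the highest of the 5 columns in 26 of 26, against 30.2% of all genes, and scramble shRNA the lowest in 0 of 26, against 22.0%. Scramble shRNA lay above the EZH2 knockdown and astemizole columns: the median level was 36.2 FPKM with scramble shRNA, 2.58 with EZH2 knockdown, 28.6 with GSK126, 6.49 with astemizole and 52.5 with vehicle. In bulk RNA, fewer cells in this phase and less of these transcripts per cell cannot be told apart.

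PTTG1, which encodes securin, the protein that holds separase in check until anaphase, was the 1 member past 2-fold, a call lost after length adjustment (ratio -0.75). It stood at 139.7 FPKM with scramble shRNA, 14.3 with EZH2 knockdown, 146 with GSK126, 19.7 with astemizole and 303 with vehicle (ratio -1.11). PLK1, the polo-like kinase of mitotic entry, stood at 35.3 FPKM with scramble shRNA and 71.3 with vehicle, just short of 2-fold (ratio -0.995). CENPA, the histone variant of centromeres, stood at 16.6 FPKM with scramble shRNA and 30.6 with vehicle (ratio -0.85). CCNB1, the cyclin partner of CDK1, stood at 96.8 and 169.6 FPKM in the same order (ratio -0.80). At the other end of the list were the motor KIF11 (14.6 FPKM with scramble shRNA, 16.5 with vehicle, ratio -0.16) and the motor CENPE (32.5 and 35.8, ratio -0.14), the list's smallest difference. CDKN3, a phosphatase that acts on CDK1 and CDK2, was listed among the CDK inhibitors and stood at 51.1 FPKM with scramble shRNA and 103.6 with vehicle (ratio -1.005).

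Many G2 and mitosis genes carry in their promoters a CHR element, the site through which the DREAM and MuvB complexes hold them silent early in the cell cycle and release them late, and CCAAT boxes bound by NF-Y. The 4 members with the largest differences are shown by the 250 bases before the gene start, from RefSeq on GRCh38.p14, each on the plus strand: PTTG1 at chr5:160421605-160421854, PLK1 at chr16:23678639-23678888, CENPA at chr2:26785806-26786055 and CCNB1 at chr5:69166900-69167149. Capitals mark the CHR letters TTTGAA or TTTAAA and the CCAAT box, either strand.
PTTG1: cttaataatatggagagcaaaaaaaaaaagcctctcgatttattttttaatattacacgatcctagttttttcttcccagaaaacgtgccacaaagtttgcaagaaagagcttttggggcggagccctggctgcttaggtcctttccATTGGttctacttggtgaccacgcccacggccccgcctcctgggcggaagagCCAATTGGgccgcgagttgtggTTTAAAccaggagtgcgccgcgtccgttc
PLK1: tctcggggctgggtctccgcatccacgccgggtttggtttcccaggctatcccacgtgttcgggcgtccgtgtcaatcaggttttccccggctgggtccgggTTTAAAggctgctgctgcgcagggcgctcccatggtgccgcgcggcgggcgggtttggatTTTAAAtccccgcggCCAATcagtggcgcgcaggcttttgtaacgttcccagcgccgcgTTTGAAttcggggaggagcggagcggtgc
CENPA: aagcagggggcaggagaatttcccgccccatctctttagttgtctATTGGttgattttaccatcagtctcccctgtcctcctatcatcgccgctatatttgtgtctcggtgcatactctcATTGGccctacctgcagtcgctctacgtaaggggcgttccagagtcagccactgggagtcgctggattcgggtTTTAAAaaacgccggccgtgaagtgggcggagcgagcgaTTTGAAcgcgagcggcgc
CCNB1: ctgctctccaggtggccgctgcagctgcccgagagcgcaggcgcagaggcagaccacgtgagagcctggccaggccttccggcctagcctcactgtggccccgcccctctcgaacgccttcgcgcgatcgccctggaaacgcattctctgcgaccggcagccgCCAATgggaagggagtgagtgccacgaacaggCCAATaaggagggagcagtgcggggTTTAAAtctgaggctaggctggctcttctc

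Each of the 4 promoters held both motifs, with a CHR match beginning 29 bases before the gene start in PTTG1 and PLK1, 30 in CCNB1 and 18 in CENPA. Over the window from 250 bases before to 50 after the start, 16 of 21 G2 and mitosis genes with a promoter in the table held a CHR match (76.2%), against 4 of 21 S phase genes (19.0%), 14.9% of the compared genes and 24.3% of all promoters. CCAAT was found in 18 of 21 (85.7%), against 13 of 21 S phase genes (61.9%), 37.7% of compared genes and 35.7% of all promoters. CHR and CCAAT matches can share at most 1 end base. A match is a run of letters and not a measured binding site.

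Genes of S phase lay on both sides of 0. Of 26, 10 had a ratio above 0 and 16 below, against 34.6% and 65.4% of all genes. The median was -0.14, and it was 0.01 after length adjustment and 0.11 after rescaling to equal totals. Scramble shRNA was the highest of the 5 columns in 10 of the 26 and vehicle in the other 16, against 9.96% and 30.2% of all genes. CCNE1, the cyclin of the G1 to S transition, stood at 13.2 FPKM with scramble shRNA, 7.62 with EZH2 knockdown, 8.76 with GSK126, 5.32 with astemizole and 9.80 with vehicle (ratio 0.40). MCM4, a subunit of the replicative helicase, stood at 70.8 FPKM with scramble shRNA and 60.0 with vehicle (ratio 0.23). TK1, the thymidine kinase of the salvage pathway, lay on the other side at 160.1 FPKM with scramble shRNA and 255 with vehicle (ratio -0.67). GINS2, part of the helicase activator, stood at 26.9 and 40.1 FPKM in the same order (ratio -0.56).

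Targets of p53 were lower with scramble shRNA as well. Of 23 compared, 20 had a ratio below 0, against 65.4% of all genes, and 6 were at least 1.5-fold lower, against 4.76%. Their median was -0.51, -0.24 after rescaling and -0.26 after length adjustment. CDKN1A, which encodes the CDK inhibitor p21, stood at 48.0 FPKM with scramble shRNA, 370 with EZH2 knockdown, 73.6 with GSK126, 374 with astemizole and 99.4 with vehicle (ratio -1.03). Scramble shRNA was the lowest of the 5. MDM2, the ubiquitin ligase that degrades p53, stood at 18.7 FPKM with scramble shRNA, 74.4 with EZH2 knockdown, 26.1 with GSK126, 38.9 with astemizole and 31.2 with vehicle (ratio -0.71). BTG2, an antiproliferative p53 target, stood at 14.1 FPKM with scramble shRNA and 22.6 with vehicle (ratio -0.65). Scramble shRNA was the lowest column in 11 of the 23, against 22.0% of all genes. The sestrin gene SESN1 lay on the other side at 21.4 FPKM with scramble shRNA and 20.2 with vehicle (ratio 0.08).

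**Figure D4:**
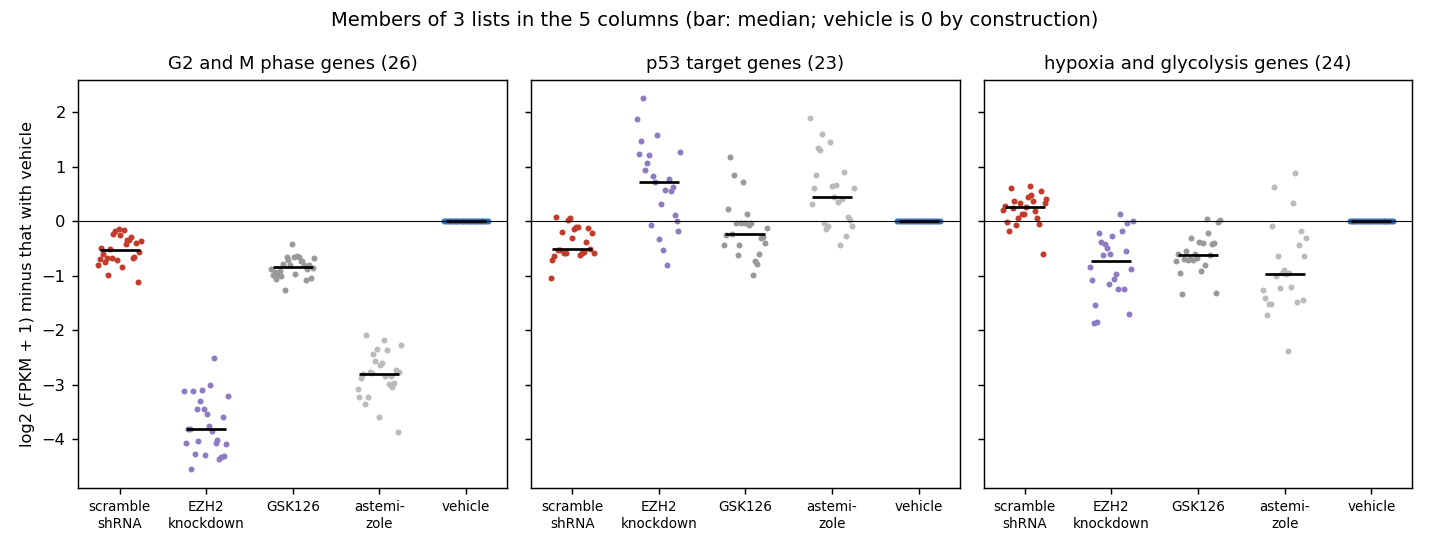
log2 of FPKM + 1 minus its value with vehicle (vertical) for the members of 3 lists in the 5 columns; dots are genes, black bars medians, and vehicle is 0 by construction, so the other columns share it. All 26 G2 and M genes lie below 0 with scramble shRNA (median -0.54), but above every value in the EZH2 knockdown and astemizole columns, and 19 of 24 hypoxia and glycolysis genes lie above 0.

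Interferon-stimulated genes, read as a mark of a response to infection, were not raised as a group in the scramble library. Of 32 interferon-stimulated genes 20 reached 1 FPKM in either column, and 17 of them had a ratio below 0, against 65.4% of all genes. None was 1.5-fold higher, against 1.38% of all genes, so a list of 20 can hold none without standing out. The list median was -0.29, -0.08 after rescaling and -0.06 after length adjustment. IFIT1, an RNA-binding antiviral protein, was the 1 member at least 2-fold lower, against 0.889% of all genes. It stood at 0.505 FPKM with scramble shRNA and 2.16 with vehicle (ratio -1.07). IFIT1, IFI44 (0.566 and 1.45 FPKM in the same order) and OAS1 (0.394 and 1.04) passed the filter only through vehicle. That by itself puts their ratios below 0, and they are part of the 17 and of the list median. ISG15, a ubiquitin-like modifier, stood at 135.4 FPKM with scramble shRNA and 181 with vehicle (ratio -0.42). OAS3, a sensor of double-stranded RNA, had the highest ratio, 4.75 FPKM with scramble shRNA and 4.08 with vehicle (0.18). Levels of the chemokine gene CXCL10 were 0 with scramble shRNA and 0.0411 with vehicle.

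The sensors themselves differed little. Of 18 in the list 9 were compared, and the median was 0.05 both as computed and after length adjustment. None was 1.5-fold apart, where 1.38% of all genes were higher and 4.76% lower by that much. DDX58, which encodes RIG-I, stood at 1.05 FPKM with scramble shRNA and 1.07 with vehicle. IFIH1, which encodes MDA5, stood at 2.45 FPKM with scramble shRNA and 2.27 with vehicle. EIF2AK2, the kinase PKR, had the highest ratio at 8.64 and 6.41 FPKM in the same order (0.38). Among 10 restriction factors the median was -0.03, which became 0.21 after rescaling and 0.11 after length adjustment. SERINC5, which lowers the infectivity of retroviral particles, stood at 46.9 FPKM with scramble shRNA and 30.4 with vehicle (ratio 0.61). APOBEC3B, a cytidine deaminase, stood at 29.7 FPKM with scramble shRNA and 44.4 with vehicle (ratio -0.57). B2M, the light chain of MHC class I, stood at 203 and 298 FPKM in the same order (ratio -0.55). Its antigen presentation list had a median of -0.19, which became 0.06 after rescaling and -0.04 after length adjustment.

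The small RNA machinery stood slightly higher with scramble shRNA. Of 18 genes 13 had a ratio above 0, against 34.6% of all genes. None was 1.5-fold higher or lower, against 1.38% and 4.76% of all genes. The median was 0.18, 0.43 after rescaling and 0.13 after length adjustment in a list whose median transcript was 6032 bases. DICER1, the hairpin-cutting enzyme, had the largest ratio: 12.3 FPKM with scramble shRNA, 24.4 with EZH2 knockdown, 10.3 with GSK126, 11.2 with astemizole and 8.11 with vehicle (0.54). The 2 infected columns were its 2 highest, which is a description of 1 gene. Across the 18 genes scramble shRNA was the highest of the 5 columns in 4, against 9.96% of all genes, and the lowest in 0. Vehicle was the lowest in 6, against 14.4%, and the highest in 4, against 30.2%. AGO2, the slicing Argonaute, stood at 11.3 FPKM with scramble shRNA, 12.3 with EZH2 knockdown, 9.19 with GSK126, 6.63 with astemizole and 8.56 with vehicle (ratio 0.37). XPO5, the hairpin export factor, stood at 19.4 FPKM with scramble shRNA and 15.1 with vehicle (ratio 0.34). TARBP2, the partner of Dicer, lay on the other side at 21.5 FPKM with scramble shRNA and 25.7 with vehicle (ratio -0.25).

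Androgen-induced genes stood slightly higher with scramble shRNA. Of 31 compared 23 had a ratio above 0, against 34.6% of all genes. At 1.5-fold, 1 was higher and 1 lower, beside 1.38% and 4.76% of all genes. The median was 0.23, 0.49 after rescaling, and 0.32 with 27 above 0 after length adjustment, beside 51.2% of all genes with a length. FKBP5, a cochaperone of steroid receptors, stood at 91.5 FPKM with scramble shRNA, 16.4 with EZH2 knockdown, 67.2 with GSK126, 18.6 with astemizole and 64.1 with vehicle (ratio 0.51). TMPRSS2, a serine protease, stood at 361 FPKM with scramble shRNA and 269 with vehicle (ratio 0.42). The kallikreins differed less: the ratio was 0.06 for KLK3, and KLK2 stood at 473 FPKM with scramble shRNA and 477 with vehicle (-0.01). TRPM8, a cold-sensing calcium channel, was the member 1.5-fold lower, at 19.2 FPKM with scramble shRNA, 46.1 with EZH2 knockdown, 42.4 with GSK126, 11.7 with astemizole and 31.2 with vehicle (ratio -0.67). ZBTB16, a zinc finger repressor, was the one 1.5-fold higher, at 12.1 FPKM with scramble shRNA and 7.26 with vehicle (0.67).

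Among coregulators of nuclear receptors and pioneer factors, those named are the ones with the largest differences. NCOA2, a coactivator of nuclear receptors, stood at 7.82 FPKM with scramble shRNA and 3.91 with vehicle (ratio 0.85). NRIP1, a corepressor, stood at 11.1 FPKM with scramble shRNA and 6.54 with vehicle (0.69), and the acetyltransferase gene EP300 at 9.32 and 5.61 (0.64). All 3 are in the longest class of transcripts, and their length-adjusted ratios were 0.72 for NCOA2, 0.56 for NRIP1 and 0.51 for EP300. GATA2, a pioneer factor, lay on the other side at 67.2 FPKM with scramble shRNA and 91.9 with vehicle (-0.45).

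Genes of hypoxia and glycolysis stood higher with scramble shRNA. Of 24, 19 had a ratio above 0, against 34.6% of all genes. Scramble shRNA was the highest of the 5 columns in 17 of the 24, against 9.96% of all genes. The median was 0.25, 0.52 after rescaling and 0.40 after length adjustment. PDK1, the kinase that turns pyruvate away from the mitochondrion, stood at 23.1 FPKM with scramble shRNA, 6.89 with EZH2 knockdown, 10.7 with GSK126, 6.97 with astemizole and 14.4 with vehicle (ratio 0.65). PFKP, the platelet-type phosphofructokinase, stood at 93.1, 16.2, 37.2 and 20.7 FPKM in the same order and at 60.8 with vehicle (ratio 0.61). LDHA, lactate dehydrogenase A, stood at 999 FPKM with scramble shRNA and 736 with vehicle (ratio 0.44). In all 3 genes the 2 controls were the 2 highest columns. HILPDA, a lipid droplet protein induced by hypoxia, went the other way at 30.7 FPKM with scramble shRNA and 46.9 with vehicle (ratio -0.60).

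Genes of the integrated stress response, in which ATF4 drives amino acid supply and, through DDIT3, cell death, were lower with scramble shRNA. Of 25, 24 had a ratio below 0, against 65.4% of all genes, and 3 were at least 1.5-fold lower, against 4.76%. The median was -0.32, -0.06 after rescaling, beside 0.13 for all genes, and -0.19 after length adjustment. ATF4 stood at 244 FPKM with scramble shRNA, 194 with EZH2 knockdown, 321 with GSK126, 744 with astemizole and 387 with vehicle (ratio -0.66). DDIT3 stood at 16.5 FPKM with scramble shRNA, 28.7 with EZH2 knockdown, 27.4 with GSK126, 85.6 with astemizole and 29.5 with vehicle (ratio -0.80). CHAC1, an enzyme that breaks down glutathione, stood at 1.51 FPKM with scramble shRNA and 4.01 with vehicle (ratio -0.99). ER chaperone genes had a median ratio of -0.25, which became 0.01 after rescaling and -0.09 after length adjustment. Among them MANF stood at 162.3 FPKM with scramble shRNA and 258 with vehicle (ratio -0.67).

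The metallothioneins, small proteins that bind zinc and copper, split. MT1F stood at 97.4 FPKM with scramble shRNA, 31.2 with EZH2 knockdown, 16.2 with GSK126, 38.9 with astemizole and 34.8 with vehicle (ratio 1.46). MT1X stood at 87.0 FPKM with scramble shRNA, 129.7 with EZH2 knockdown, 134 with GSK126, 166 with astemizole and 211 with vehicle (ratio -1.27). Scramble shRNA was thus the highest column for MT1F and the lowest for MT1X. MT1G was listed at 0 with vehicle and with astemizole, and stood at 2.65 FPKM with scramble shRNA, 0.142 with EZH2 knockdown and 3.76 with GSK126. Its highest column was thus GSK126. MT2A, the most abundant, stood at 595 and 526 FPKM with scramble shRNA and vehicle (ratio 0.18). These are short paralogs of similar sequence, and the sources used do not state how the counting divided their reads.

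Of 9 genes of BMP signalling and its feedback, 3 were at least 2-fold lower with scramble shRNA, against 0.889% of all genes. ID1, an inhibitor of basic helix-loop-helix factors, stood at 4.22 FPKM with scramble shRNA, 36.9 with EZH2 knockdown, 4.49 with GSK126, 53.5 with astemizole and 11 with vehicle (ratio -1.20). ID3, of the same family, stood at 3.15 FPKM with scramble shRNA and 7.5 with vehicle (ratio -1.04). BAMBI, a decoy receptor of the pathway, stood at 17.3 FPKM with scramble shRNA and 36.8 with vehicle (ratio -1.05). After length adjustment none of the 3 was past 2-fold, with ratios of -0.84 for ID1, -0.78 for BAMBI and -0.68 for ID3. The list of 9 had a median of -0.25, -0.02 after rescaling and -0.14 after length adjustment. JUND, an AP-1 subunit, was the 1 immediate early gene past 2-fold, at 48.2 FPKM with scramble shRNA and 97.8 with vehicle (ratio -1.01).

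Polycomb genes, the subject of the knockdown, were near the median of all genes. EZH2, the methyltransferase of PRC2, stood at 24.6 FPKM with scramble shRNA, 3.35 with EZH2 knockdown and 26.5 with vehicle (ratio -0.11). EED (13.6 FPKM with scramble shRNA, 14.9 with vehicle) and SUZ12 (28.6 and 28.4), its core partners, were as close. EZH1, the paralog of EZH2, stood at 2.85 FPKM with scramble shRNA and 3.81 with vehicle (ratio -0.32). PHF19, a Polycomb-like subunit, had the largest ratio at 3.75 and 6.43 FPKM in the same order (-0.65). The 12 PRC2 genes had a median of -0.12, which became 0.13 after rescaling and -0.02 after length adjustment. The 18 PRC1 genes had one of -0.13, which became 0.13 after rescaling and -0.12 after length adjustment. HOX genes, classic Polycomb targets, had a median of -0.37 over the 17 compared, -0.14 after rescaling and -0.17 after length adjustment. Among them HOXB7 stood at 5.80 FPKM with scramble shRNA and 9.62 with vehicle (ratio -0.64).

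**Figure D5:**
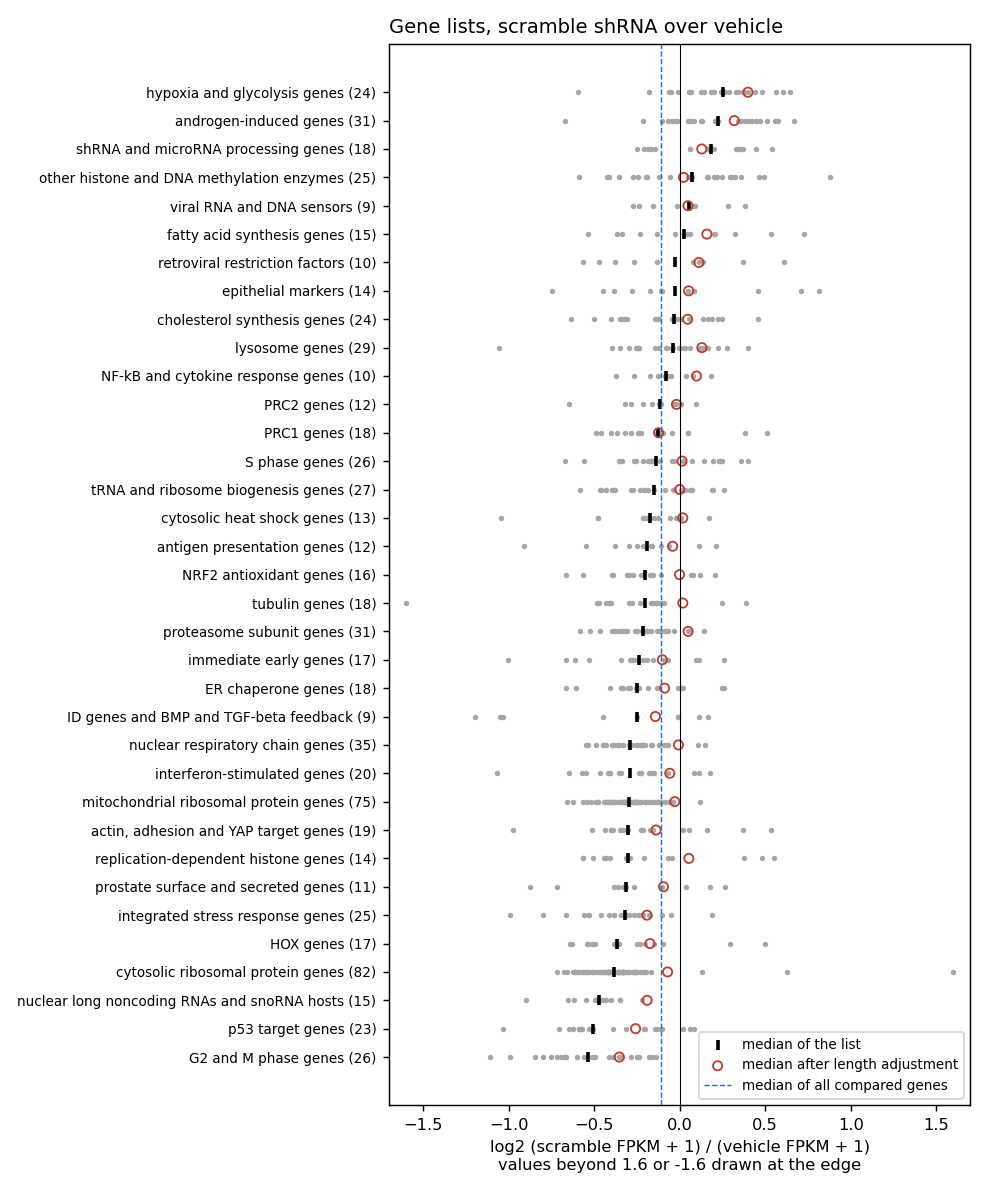
Ratios of scramble shRNA over vehicle (horizontal, log2; values beyond 1.6 or -1.6 sit at the edge) for the members of lists with 9 or more compared genes (some lists left out, zinc finger genes among them), number in brackets; bars are medians, circles medians after length adjustment, and the dashed line the median of all genes. Many medians near -0.3 have circles near 0, and G2 and M genes keep the lowest circle (-0.35). Some medians below 0 change sign after rescaling to equal totals, among them those of S phase, PRC2, PRC1, proteasome, tubulin, cholesterol and lysosome genes.

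Housekeeping families of short genes were lower with scramble shRNA. Of 82 cytosolic ribosomal protein genes 79 had a ratio below 0, against 65.4% of all genes, and 3 above. Their median was -0.39, -0.12 after rescaling and -0.07 after length adjustment. Scramble shRNA was the lowest of the 5 columns in 71 of them, against 22.0% of all genes, and 61 were below 0 after length adjustment, against 48.7%. RPS12 stood at 2796 FPKM with scramble shRNA and 4601 with vehicle (ratio -0.72). Of 75 mitochondrial ribosomal protein genes 74 were below 0, against 65.4% of all genes, with a median of -0.29 and -0.03 after length adjustment. The 35 nuclear genes of the respiratory chain had a median of -0.29 and -0.01 after length adjustment. The 31 proteasome genes had one of -0.22, which became 0.05 both after length adjustment and after rescaling. In these 3 lists scramble shRNA was the lowest column in 9 of 75, 14 of 35 and 4 of 31, against 22.0% of all genes. Vehicle was the highest in 66, 23 and 6 of them, against 30.2%, and in 42 of the 82 cytosolic ribosomal protein genes.

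Noncoding RNAs and snoRNA host genes were lower in 15 of 15, against 65.4% of all genes. The list median was -0.47, -0.22 after rescaling and -0.19 after length adjustment. SNHG3, a snoRNA host, stood at 26.8 FPKM with scramble shRNA and 50.8 with vehicle (ratio -0.90). NEAT1, the scaffold of paraspeckles, stood at 5.17 and 8.70 FPKM in the same order (ratio -0.65). In lipid synthesis the members parted: SCD, the stearoyl-CoA desaturase, stood at 275 FPKM with scramble shRNA and 165.8 with vehicle (ratio 0.73), and FASN, the fatty acid synthase, at 146 and 212 (ratio -0.54). The 14 epithelial markers split into 7 above and 7 below 0, against 34.6% and 65.4% of all genes. Their median of -0.03 became 0.22 after rescaling and 0.05 after length adjustment. The junction gene TJP1 stood at 66.1 FPKM with scramble shRNA and 37.2 with vehicle (ratio 0.81), and DSP, of desmosomes, at 47.0 and 28.4 (0.71). Both are long genes, with length-adjusted ratios of 0.68 for TJP1 and 0.58 for DSP. ELF3, an epithelial transcription factor, lay on the other side at 3.75 FPKM with scramble shRNA and 6.98 with vehicle (-0.75). The thrombospondin gene THBS1, a YAP target, stood at 9.31 and 19.3 FPKM in the same order (-0.98).

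Further lists gave single genes rather than shared differences. Over all genes, 0.889% were at least 2-fold lower. CRYAB, a small heat shock protein, was the 1 of 13 heat shock genes past 2-fold, at 1.44 FPKM with scramble shRNA and 4.04 with vehicle (ratio -1.05). The median of the heat shock list, -0.18, became 0.09 after rescaling and 0.02 after length adjustment. Among 16 antioxidant genes driven by NRF2 the median was -0.20, which became 0.06 after rescaling and -0.001 after length adjustment. HMOX1, the haem oxygenase, stood at 10.4 FPKM with scramble shRNA and 17.1 with vehicle (ratio -0.67). GPNMB, a membrane glycoprotein of lysosomes, was the 1 of 29 lysosome genes past 2-fold, at 2.24 and 5.75 FPKM in the same order (ratio -1.06). Of 24 genes of cholesterol synthesis, EBP, a sterol isomerase, had the largest ratio at 135 FPKM with scramble shRNA and 210.4 with vehicle (-0.64). KMT2A, a histone H3 lysine methyltransferase and a long gene, stood at 6.57 FPKM with scramble shRNA and 3.12 with vehicle (ratio 0.88). GAPDH stood at 3901 FPKM with scramble shRNA and 3734 with vehicle (ratio 0.06). ACTB, the cytoplasmic actin, stood at 1254 and 1600 FPKM in the same order (ratio -0.35).

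Liver transcripts, foreign to a prostate line, were lower with scramble shRNA. Of 19 liver genes 18 were lower with scramble shRNA, and 8 were above 0 with scramble shRNA and 18 with vehicle. Only 1 reached 1 FPKM with scramble shRNA and 7 with vehicle. Most of the 7 compared thus passed the filter only through vehicle, which by itself favours a low ratio. At least 2-fold lower were 6 of these 7, which makes 6 of the 110, and the share over all genes is no fair reference for them. Their FPKM summed to 2.36 with scramble shRNA, 3.37 with EZH2 knockdown, 215 with GSK126, 6.22 with astemizole and 24.6 with vehicle. APOA2, an apolipoprotein of the liver, was listed at 0 with scramble shRNA and at 5.28 FPKM with vehicle. APOA1 stood at 1.18 FPKM with scramble shRNA and 4.15 with vehicle (ratio -1.24). Blood cell markers summed to 2.97 FPKM with scramble shRNA and 4.05 with vehicle, with LYZ listed at 0 and at 1.03. The part of these transcripts in the other differences was not tested.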

How the data were processed

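RNA-seq values of C4-2 cells were analysed from the authors' table. It holds FPKM, per the labels, with 5 columns for 6 labelled libraries, 1 library per condition. The EZH2 knockdown column names no hairpin and was used only for levels. TopHat2, Cuffdiff and hg19 are named in the submitters' processing notes, without versions. Annotation, strand handling and filters are not stated in the sources used.

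Computed here were log2 ratios with a pseudocount of 1 FPKM for names at 1 FPKM or more in either control, counts at 2-fold and 1.5-fold, medians of 47 gene lists, and ratios minus the median of the gene's class of transcript length (10 equal classes, longest GENCODE release 29 transcript, 93.1% of the compared genes matched). Promoters came from RefSeq (GRCh38.p14), whose build differs from that of the table. Python 3.11.15, numpy 2.4.6, pandas 2.3.3 and matplotlib 3.10.9 were used, and the steps were tested on simulated data. The depth is unknown, so no counting interval is given.

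The members and lists were chosen with earlier results of these data known. Named by rule were the 15 highest and 15 lowest ratios among known symbols above 0 in both controls and at 5 FPKM or more in 1, in each list up to 4 members by size of ratio, and EZH2, EED, SUZ12, EZH1, KLK3, ACTB and GAPDH. A few genes and 1 list that fall under this rule are not reported here. Other genes named were chosen after their values were seen. Alternatives tried were 9 planned and 3 added after seeing the data.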

Additional observations from a re-analysis of the deposited data

Results flagged for a closer look

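SNORA74A, a small nucleolar RNA gene left out of the comparison with the other short noncoding RNA names, was listed at 14.8 FPKM with scramble shRNA and at 0 in the other 4 columns, vehicle included. It was picked out because the signal lies outside the compared genes and above the controls. The libraries were made from polyadenylated RNA, and 1 library per condition leaves this value without a replicate.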

How the results depend on the processing

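Counts of genes at least 2-fold apart moved with most settings. Against 22 higher and 110 lower with scramble shRNA, there were 63 higher and 250 lower with a pseudocount of 0.1 FPKM, 3 and 25 with 5 FPKM, 10 and 62 among genes at 5 FPKM or more in either column, 12 and 58 at 1 FPKM or more in both, 82 higher after TPM rescaling (82 lower), 35 and 71 after median centring, and 58 higher when scaled by the value of 1 read (74 lower). Names in the reference tables alone gave 63 lower (17 higher). Among the alternatives chosen after seeing the data, length adjustment gave 33 lower (20 higher) among the 11527 genes with a length. Keeping short RNA and date-like names gave 24 and 114, and names above 0 in both columns 16 and 89. No filter on low values left 22 and 110. The share of higher calls was 16.7% as reported, 50% after TPM rescaling, 33.0% after centring, 43.9% with 1-read scaling and 37.7% with length adjustment. TPM rescaling kept all 22 higher and 77 of the 110 lower calls. List medians relative to all genes moved in 39 recomputations and stayed within their limits in 465, 18 of the 39 by length adjustment. No paired analysis was possible because each condition has 1 library, and no library could be left out for the same reason.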
